A study of Arabidopsis thaliana with 18 samples.

Results

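GH3.3 (AT2G23170) and IAGLU (AT4G15550) are 2 genes of auxin conjugation, taken here from the 13286 genes that had a probe set paired with a single locus on the array. Each was measured by 1 probe set in leaves of Arabidopsis thaliana on 18 Affymetrix arrays. Plants 2 weeks old had been held in 150 mM NaCl for 24 hours. They were then given the ethyl acetate sub-fraction (EAA) or the methanol extract (MEA) of the brown alga Ascophyllum nodosum, or 0.1% aqueous methanol as the salt reference, and sampled on day 5 or day 1. Each of the 6 groups held 3 arrays, and by the source names every group, the salt reference included, had been exposed to NaCl. The labels of the 6 salt reference arrays disagree, since NaCl without an extract is the source name whereas title and description say EAA. Their titles also do not name NaCl, as the titles of the extract groups do, so the labels disagree on salt as well as extract. The source name was followed, on which every comparison with these arrays rests. The labels call the arrays of a group biological replicates and do not say whether they came from separate plantings, so the errors measure the spread between samples as labelled.

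Auxin (indole-3-acetic acid) is kept at working levels partly by conjugation, which takes the free hormone out of action. GH3.3 belongs to the GH3 family of acyl acid amido synthetases, which join auxin to amino acids such as aspartate and glutamate; several of these genes are themselves switched on quickly by auxin. IAGLU encodes a UDP-glucose-dependent glucosyltransferase that joins auxin to glucose through an ester bond, a form that can be hydrolysed back to the free hormone. Other glucosyltransferases of the UGT74, UGT75 and UGT84 families act on auxins, phenolic acids and glucosinolate precursors.

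Both genes were chosen by their log2 signals across the 6 groups, with earlier results of these arrays known. Their levels and differences are therefore given as a description without a test, with the standard deviation (SD) of a group and the standard error (SE) of a linear model of all 6 groups. Values are log2 array signals as deposited, so a difference of 1 is a 2-fold difference. The array measures RNA from whole leaf tissue, in which fewer cells of a type and less RNA per cell cannot be told apart. Among the tissue markers, RCA, the Rubisco activase of leaf chloroplasts, stood at 13.3 to 14.02 in all arrays and EXPA7, an expansin of root hairs, at 2.92 to 3.53; the other 18 of 20 markers were unnamed here.

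Some arrays stood apart over all probe sets. A position between the days was computed for each array from the 13648 tested probe sets, with 0 at the mean of the day 1 arrays and 1 at the mean of the day 5 arrays of EAA and the salt reference. MEA day 5 replicates 1 and 3 lay at 0.15 and 0.06, just above the day 1 arrays (-0.05 to 0.04), while MEA day 5 replicate 2 lay at 1.06. The excess of the 3' over the 5' actin control probe set, a sign of RNA quality, was 2.88 (log2) in MEA day 5 replicate 1, 2.296 in MEA day 5 replicate 3 and 2.78 in EAA day 5 replicate 1, against 1.67 to 2.03 in the salt reference arrays. The differences of GH3.3 and IAGLU that involve MEA on day 5 are also given with its replicate 2 alone.

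GH3.3 was lowest in the salt reference on day 5 and higher with both extracts on that day. With EAA on day 5 its log2 signal was 5.26, 4.98 and 5.62. With MEA on day 5 it was 6.60, 5.58 and 4.70. In the salt reference on day 5 it was 3.77, 3.43 and 4.38. All 6 extract arrays of day 5 thus lay above all 3 reference arrays of that day, and the MEA arrays were the most scattered of any group.

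On day 1 the order was the other way round, with GH3.3 highest in the salt reference. EAA leaves gave 5.77, 6.15 and 6.41. MEA leaves gave 5.86, 6.16 and 5.98. Salt reference leaves gave 6.45, 7.45 and 6.32. The MEA arrays all lay below the reference arrays, the EAA arrays overlapped them, and reference replicate 2 was the highest of the 18 arrays.

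**Figure D1:**
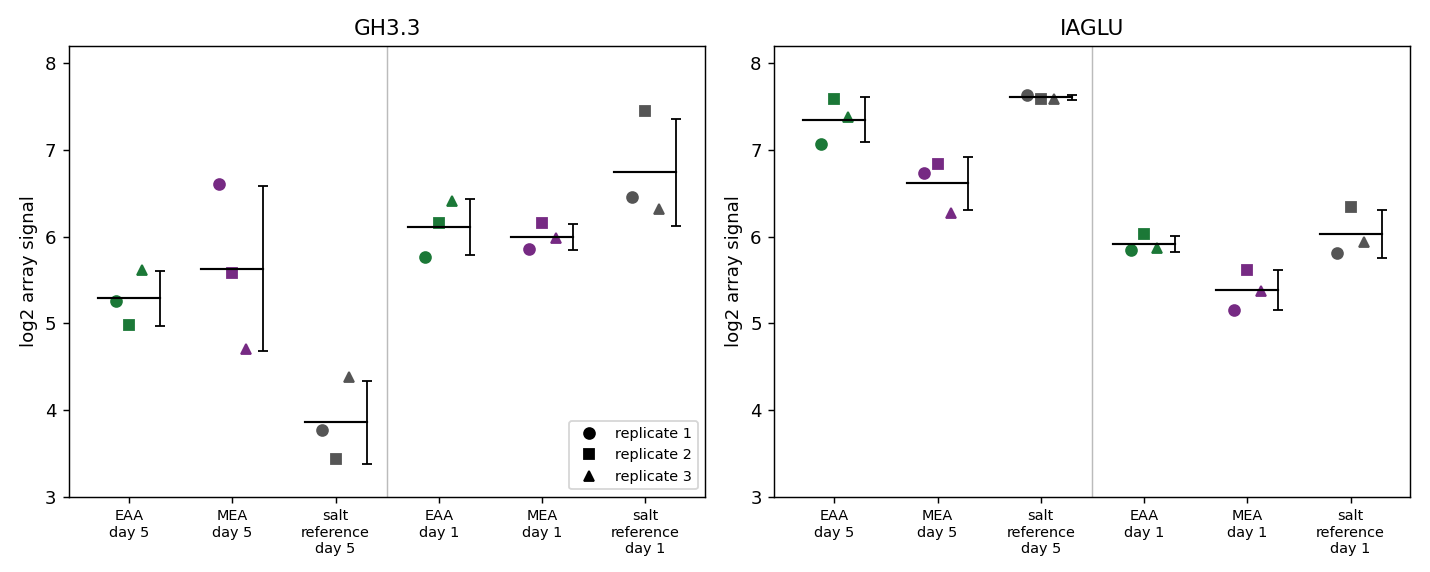
Log2 array signal of GH3.3 (left) and IAGLU (right) in each of the 18 arrays, by group; marker shapes give the replicate number, horizontal lines the group mean and bars the SD (n = 3). GH3.3 is lowest in the salt reference on day 5 (mean 3.86), whereas IAGLU is highest there (mean 7.61) and lowest with MEA on day 1 (mean 5.38).

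Between the days, the mean of GH3.3 was lower on day 5 in each treatment, with overlapping arrays for MEA and the largest difference in the salt reference. There GH3.3 averaged 3.86 ± 0.48 on day 5 and 6.74 ± 0.62 on day 1 (SD, n = 3 each), a difference of -2.88 (SE 0.40), or 7.37-fold lower on day 5. The lowest day 1 array was 1.94 above the highest day 5 array. Of all tested probe sets 28.3% were lower on day 5 with the arrays apart by any margin, as such shares were counted throughout. The reference mean of day 5 lay under 4.01, the level below which probe sets were not tested, so the size of this difference is uncertain. So are the GH3.3 sizes given below for each extract against the reference on day 5, and for the differences between the days in those effects.

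With EAA the same contrast of days was smaller. GH3.3 averaged 5.29 ± 0.32 on day 5 and 6.11 ± 0.32 on day 1, a difference of -0.82 (SE 0.40), or 1.77-fold lower on day 5. The arrays of the days were apart by 0.15, and 30.5% of tested probe sets were lower and apart. With MEA the averages were 5.63 ± 0.95 on day 5 and 5.998 ± 0.15 on day 1, a difference of -0.37 (SE 0.40) with overlapping arrays. That difference was -0.41 with MEA day 5 replicate 2 alone, with replicate 1 of that group left out it was -0.86, and with replicate 3 left out 0.10.

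EAA against the salt reference gave GH3.3 differences of opposite sign on the 2 days. On day 5 the gene was higher with EAA by 1.43 (SE 0.40), or 2.69-fold. The lowest EAA array was 0.60 above the highest reference array. Arrays apart by any margin in the same direction were found for 5.77% of tested probe sets. On day 1 it stood at -0.63 (SE 0.40) relative to the reference, with overlapping arrays, and at -0.28 without reference day 1 replicate 2. The difference between the 2 days in the EAA effect was 2.06 (SE 0.57).

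MEA against the salt reference gave the same signs. On day 5 GH3.3 was higher with MEA by 1.77 (SE 0.40), or 3.41-fold, with the arrays apart by 0.32; 7.29% of tested probe sets were higher and apart. With MEA day 5 replicate 2 alone the difference was 1.72. On day 1 it was lower with MEA by 0.74 on the log2 scale (difference -0.74, SE 0.40), with the arrays apart by 0.16. By any margin, 7.33% of tested probe sets were lower and apart. Without reference day 1 replicate 2 the GH3.3 difference of day 1 was -0.39. The MEA effect differed between the days by 2.51 (SE 0.57), or by 2.47 with MEA day 5 replicate 2 alone, and the EAA and MEA comparisons share the same reference arrays.

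Between the extracts the GH3.3 arrays overlapped on both days. EAA minus MEA was -0.34 (SE 0.40) on day 5 and 0.11 (SE 0.40) on day 1, and -0.30 on day 5 with MEA day 5 replicate 2 alone. From high to low the group means ran from salt reference day 1 (6.74) through EAA day 1 (6.11), MEA day 1 (5.998), MEA day 5 (5.63) and EAA day 5 (5.29) to salt reference day 5 (3.86). Neighbours in that order had overlapping arrays except EAA day 5 and salt reference day 5. The spread of GH3.3 within groups, 0.54, was larger than that of 91.9% of tested probe sets.

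IAGLU was higher on day 5 than on day 1 in every treatment, the opposite sign to the differences of GH3.3 means, of which that with MEA had overlapping arrays. With EAA on day 5 its log2 signal was 7.07, 7.59 and 7.38. With MEA on day 5 it was 6.74, 6.84 and 6.27. In the salt reference on day 5 it was 7.64, 7.59 and 7.59. The reference arrays lay within 0.05 of one another, above all EAA arrays by a margin of 0.004 and above all MEA arrays by 0.75.

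On day 1 IAGLU was lowest with MEA. EAA leaves gave 5.85, 6.03 and 5.87. MEA leaves gave 5.16, 5.62 and 5.37. Salt reference leaves gave 5.81, 6.34 and 5.94. The EAA and reference arrays overlapped, and the MEA arrays lay below both.

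The differences between the days were of like size in the 3 treatments. IAGLU averaged 7.35 ± 0.26 with EAA on day 5 and 5.92 ± 0.10 on day 1 (SD, n = 3 each), a difference of 1.43 (SE 0.18), or 2.69-fold. With MEA it averaged 6.62 ± 0.30 on day 5 and 5.38 ± 0.23 on day 1, a difference of 1.23 (SE 0.18), or 2.35-fold. In the salt reference it averaged 7.61 ± 0.03 on day 5 and 6.03 ± 0.28 on day 1, a difference of 1.58 (SE 0.18), or 2.99-fold. In each treatment the arrays of the days were apart, by 1.04 with EAA, 0.65 with MEA and 1.25 in the reference. The shares of tested probe sets that were higher and apart on day 5 were 26.5% with EAA, 8% with MEA and 25.1% in the reference. With MEA day 5 replicate 2 alone the MEA difference was 1.46.

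MEA leaves had less IAGLU signal than reference leaves on both days. On day 5 MEA minus the salt reference was -0.99 (SE 0.18), 1.99-fold lower, with the arrays apart, as for 9.3% of tested probe sets that were lower and apart; with MEA day 5 replicate 2 alone it was -0.77. On day 1 it was -0.64 (SE 0.18), 1.56-fold lower, with the arrays apart by 0.19, and 7.33% of tested probe sets were lower and apart. The MEA effect differed between the days by -0.35 (SE 0.26), or by -0.12 with MEA day 5 replicate 2 alone.

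EAA leaves were close to reference leaves in IAGLU on day 1, at -0.11 (SE 0.18) with overlapping arrays. On day 5 EAA minus the reference was -0.26 (SE 0.18), and -0.12 without EAA day 5 replicate 1, the array with the high actin difference. The EAA arrays lay just below the reference arrays in the deposited values, as for 8.11% of tested probe sets, and overlapped them once each array was centred on its median or quantile normalized.

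The direct comparison of the 2 extracts gave higher IAGLU with EAA on both days. On day 5 EAA minus MEA was 0.73 (SE 0.18), or 1.66-fold, with the arrays apart by 0.23, and 6.06% of tested probe sets were higher and apart. With MEA day 5 replicate 2 alone it was 0.51. On day 1 it was 0.53 (SE 0.18), or 1.45-fold, with the arrays again apart by 0.23, and 9.09% of tested probe sets were higher and apart. The day 1 comparison does not involve the day 5 arrays that stood apart.

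**Figure D2:**
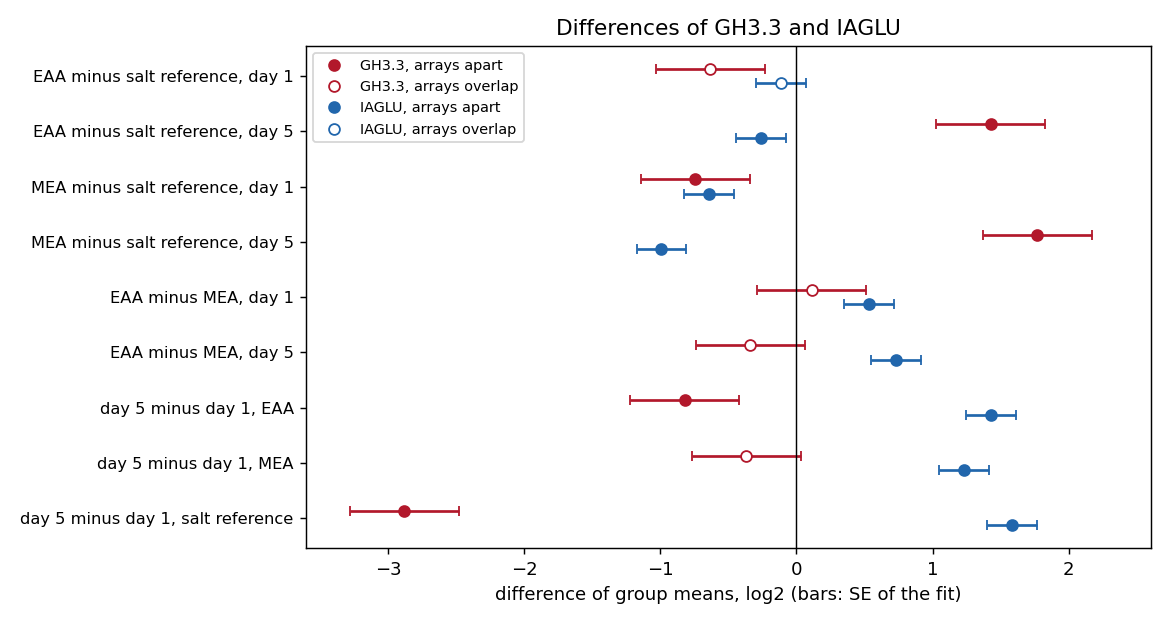
Differences of group means (log2) for GH3.3 and IAGLU in 9 comparisons, with bars for the SE of the model; filled points mark comparisons in which all 3 arrays of one group lie beyond all 3 of the other. GH3.3 is higher with both extracts on day 5 (1.43 and 1.77), and IAGLU is lower with MEA on both days (-0.99 on day 5 and -0.64 on day 1).

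From high to low the IAGLU means ran from salt reference day 5 (7.61) through EAA day 5 (7.35), MEA day 5 (6.62), salt reference day 1 (6.03) and EAA day 1 (5.92) to MEA day 1 (5.38). MEA day 5 overlapped salt reference day 1, and salt reference day 1 overlapped EAA day 1; the other neighbours were apart. The spread of IAGLU within groups, 0.22, was near the middle of tested probe sets (larger than in 47.7%). Over the 9 comparisons, which share arrays, GH3.3 had its arrays apart in 5 and IAGLU in 8. In a single comparison and in the directions concerned, 5.77% to 30.5% of tested probe sets were apart. How many probe sets reach such counts over the comparisons was not computed.

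The MEA arrays of day 5 can be read gene by gene against the position of the array. For each gene 0 was set at its mean in the 6 day 1 arrays of EAA and the salt reference and 1 at its mean in their 6 day 5 arrays. IAGLU stood at 0.51 in MEA day 5 replicate 1, 0.58 in replicate 2 and 0.20 in replicate 3. The arrays as a whole stood at 0.15, 1.06 and 0.06. IAGLU therefore lay above the MEA arrays of day 1 also in the 2 arrays whose other probe sets resembled day 1, and below the day 5 arrays of EAA and the reference in the array that resembled day 5. GH3.3 stood at -0.10, 0.45 and 0.93 in the same arrays. Its order among them was thus not that of the array positions. Whether the RNA quality of these arrays had a part in these values was not tested.

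**Figure D3:**
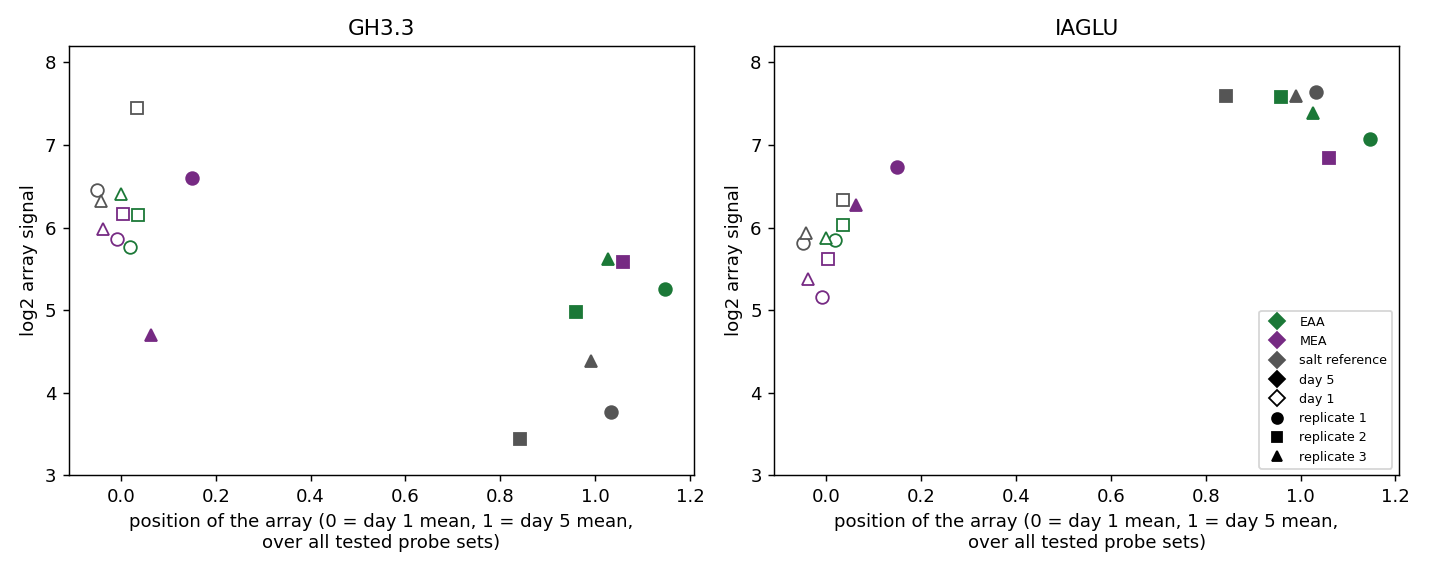
Log2 signal of GH3.3 (left) and IAGLU (right) against the position of each array between the day 1 mean (0) and the day 5 mean (1) of EAA and salt reference arrays, over all tested probe sets; colours give the treatment, filled markers day 5 and shapes the replicate. MEA day 5 replicates 1 and 3 lie just beyond the day 1 arrays on the horizontal axis (0.15 and 0.06), with IAGLU at 6.74 and 6.27.

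The other genes of the auxin pathway were read from lists of 164 loci in 10 classes, of which 28 beside GH3.3 and IAGLU had a named probe set. Of these, 12 reached the signal needed for the test and 16 did not. Tests were made with limma over all 13648 probe sets, and a gene passed at a Benjamini-Hochberg adjusted p under 0.05. None of the named genes belonged to the classes of conjugate hydrolysis, auxin transport, auxin response factors or SAUR growth genes, which were not analysed here.

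Between the days with EAA, 4 of the 12 genes passed, 3 higher and 1 lower on day 5, where 36.5% of all tested probe sets passed. The median difference of the 12 was 0.18, against -0.02 over all tested probe sets. SKP2A (AT1G21410), an F-box protein that binds auxin and targets cell cycle factors for breakdown, rose by 1.95 (SE 0.49, adjusted p = 0.00731), with 9.57, 9.60 and 9.98 on day 5 and 7.78, 7.74 and 7.77 on day 1. UGT74D1 (AT2G31750), a glucosyltransferase active on auxins, rose by 0.70 (SE 0.15, adjusted p = 0.00291), with 8.01, 7.88 and 7.84 on day 5 and 7.45, 7.14 and 7.04 on day 1. The arrays of the days did not overlap for either gene, nor for IAA18 and UGT74B1, given next. Of all tested probe sets 26.5% were higher and apart on day 5 with EAA and 30.5% lower and apart. IAA18, an Aux/IAA repressor of auxin response, rose by 0.51 (SE 0.17, adjusted p = 0.0313). UGT74B1, which glucosylates glucosinolate precursors, fell by 0.50 (SE 0.16, adjusted p = 0.0239). IAA18 did not pass when any 1 of the 6 EAA arrays was left out (adjusted p = 0.0524 to 0.0963). UGT74B1 did not pass without EAA day 1 replicate 1 (adjusted p = 0.073) or 2 (0.0615) or EAA day 5 replicate 1 (0.118, with a difference of -0.28), nor with arrays centred on the median (0.0634). Without the MEA day 5 group in the model, 6 of the 12 passed by limma with EAA, where 48% of all tested probe sets passed. SKP2A, UGT74D1 and IAA18 (adjusted p = 0.00296) rose there. UGT74B1 (0.0175), AT1G14130 (0.0381) and IAA29 (0.00272) fell.

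In the salt reference the same contrast gave 1 of 12, UGT74D1, where 30.9% of tested probe sets passed; the median of the 12 was 0.28 against -0.01 over all. UGT74D1 rose by 0.73 (SE 0.15, adjusted p = 0.00217), with 8.16, 7.91 and 8.09 on day 5 and 7.30, 7.30 and 7.38 on day 1. SKP2A stood at 1.25 (SE 0.49) and IAA18 at 0.44 (SE 0.17) without passing. Without the MEA day 5 group in the model, 5 of the 12 passed in the salt reference: UGT74D1, SKP2A and IAA18 rose, and AT1G14130 and IAA29 fell. In that model 43.9% of all tested probe sets passed. With MEA none of the 12 passed between the days by limma, where 3.92% of tested probe sets passed. An unadjusted p under 0.05 was found by limma for 4 of the 12 and for 2786 of the 13648 tested probe sets. The median of the 12 was 0.22 against -0.04 over all. With MEA day 5 replicate 2 alone 4 passed: UGT74D1, SKP2A and IAA18 rose, by 0.66, 2.29 and 0.89, and IAA29 fell by 1.13. In that setting 37.9% of all tested probe sets passed.

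**Figure D4:**
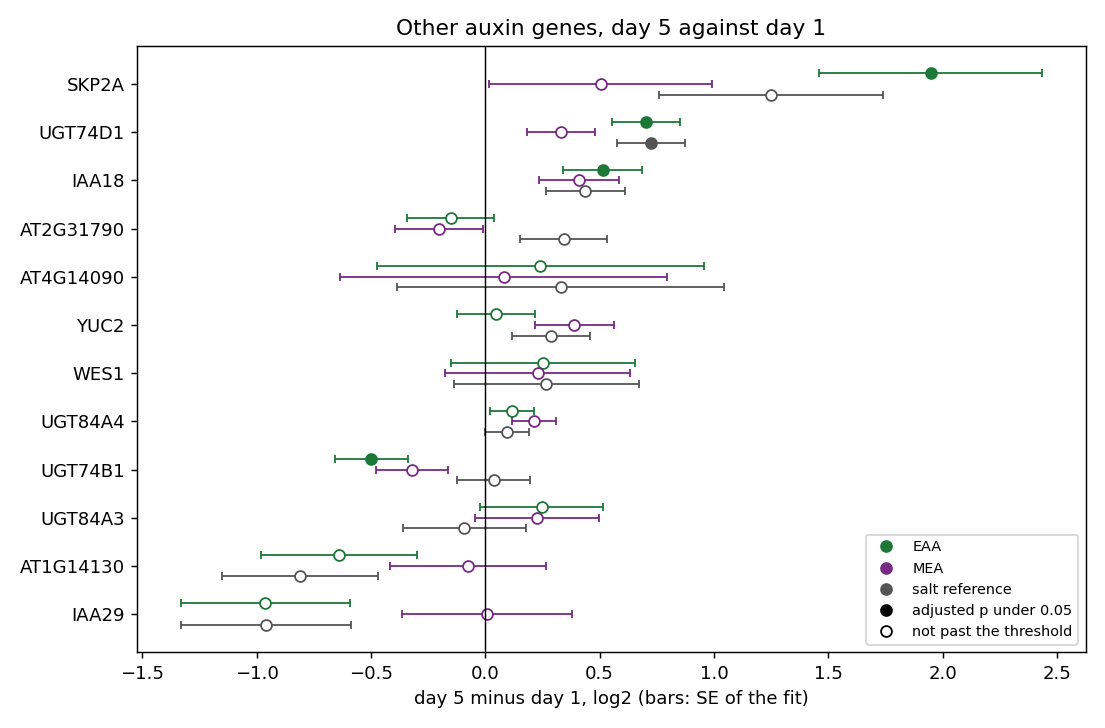
Day 5 minus day 1 (log2) of the 12 tested auxin genes other than GH3.3 and IAGLU, with EAA, MEA and in the salt reference; bars are the SE of the model and filled points passed an adjusted p under 0.05. SKP2A, UGT74D1 and IAA18 rose with EAA (1.95, 0.70 and 0.51), and UGT74D1 rose in the salt reference (0.73).

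MEA against the salt reference on day 5 gave 1 of the 12, UGT74D1, where 10.7% of tested probe sets passed; the median of the 12 was -0.25 against -0.03 over all. With MEA on day 5 it stood at 7.05, 7.59 and 7.15, below the 8.16, 7.91 and 8.09 of the reference. It fell by 0.79 with MEA (SE 0.15, adjusted p = 0.00603). EAA minus MEA on day 5 also gave UGT74D1 alone, where 3.85% of tested probe sets passed; the median was 0.05 against -0.000105 over all. EAA gave 8.01, 7.88 and 7.84, above the 3 MEA arrays, a difference of 0.65 in favour of EAA (SE 0.15, adjusted p = 0.0345). With MEA day 5 replicate 2 alone neither UGT74D1 call was kept, at -0.46 (adjusted p = 0.13) against the reference and 0.32 (adjusted p = 0.495) for EAA minus MEA. In that setting SKP2A passed instead against the reference, higher with MEA by 0.88 (SE 0.22, adjusted p = 0.0269), where 6.69% of tested probe sets passed. Without EAA day 5 replicate 1, 2 or 3 or MEA day 5 replicate 1 or 3 the EAA minus MEA call was lost as well (adjusted p = 0.0589 to 0.166).

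The glucosyltransferase UGT74D1, whose product joins auxins to glucose as that of IAGLU does, had its highest group mean in the salt reference on day 5 (8.05 ± 0.13), then with EAA on day 5 (7.91 ± 0.09), and its lowest with MEA on day 1 (6.93 ± 0.15; SD, n = 3 each). These are the same 3 groups that stood highest and lowest for IAGLU. They also held the 2 highest and the lowest means in all 5 profiles nearest to IAGLU, given below. The share of tested probe sets with these groups at the ends was not counted. In the middle the means differed, with UGT74D1 at 7.27 with MEA on day 5 and 7.33 in the reference on day 1. For IAGLU those means were 6.62 and 6.03. In MEA day 5 replicates 1 and 3 UGT74D1 stood at -0.30 and -0.16 on the scale of its own difference between the days, where IAGLU stood at 0.51 and 0.20; the MEA arrays of day 1 lay between -0.64 and -0.24 for UGT74D1. SKP2A stood at 7.59 and 7.14 in them and at 10.05 in replicate 2.

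**Figure D5:**
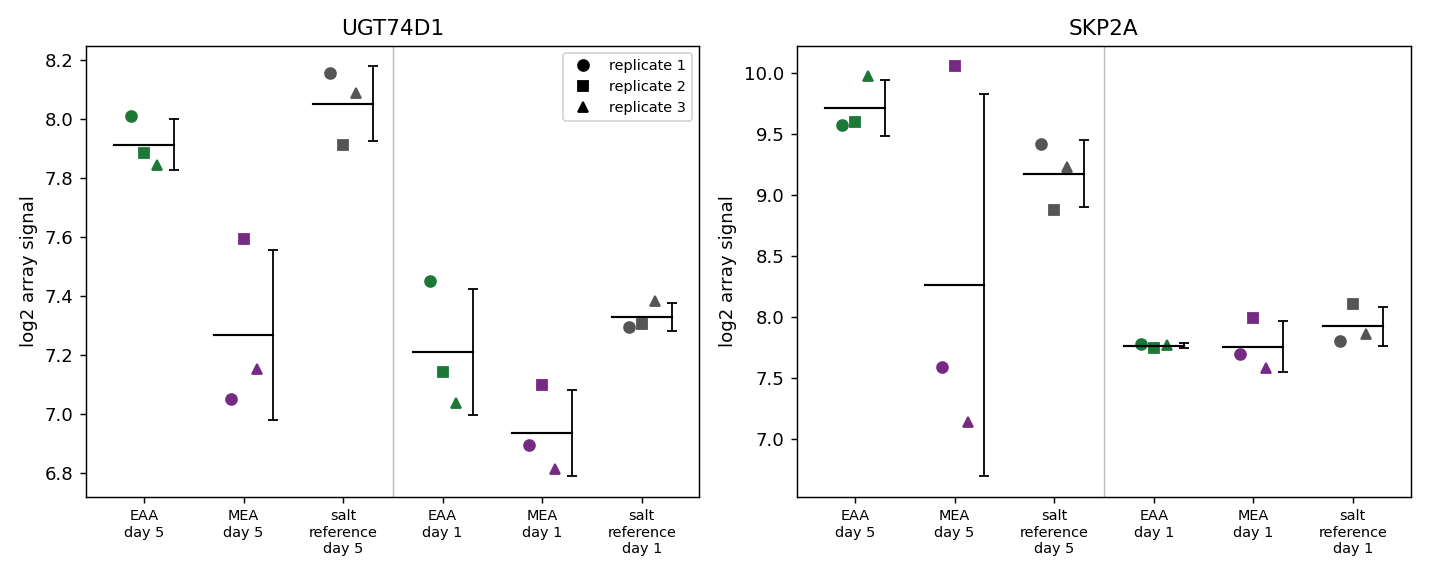
Log2 array signal of UGT74D1 (left) and SKP2A (right) in each of the 18 arrays by group, with the mean (line) and SD (bar, n = 3); the vertical axes differ and do not start at 0. UGT74D1 with MEA on day 5 lies at 7.05 to 7.59, below the salt reference of that day (7.91 to 8.16), while SKP2A is at 10.05 in MEA day 5 replicate 2 and at 7.59 and 7.14 in replicates 1 and 3.

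None of the 12 genes passed for EAA against the salt reference on day 5 or on day 1, for MEA against the reference on day 1 or for EAA against MEA on day 1. By limma, the numbers with an unadjusted p under 0.05 were 2, 0, 1 and 0 in that order. Over all 13648 tested probe sets such numbers were 1017, 436, 169 and 324. The shares of all tested probe sets that passed were 0%, 0.022%, 0% and 0.022%. The medians of the 12 were -0.14, 0.02, -0.10 and 0.09, against -0.04, -0.02, -0.02 and 0.00276 over all tested probe sets. No gene of the 12 passed a limma test of whether the effect of an extract differed between the days. Of all tested probe sets 0.00733% passed for EAA and 0.103% for MEA. By that limma test 1 of the 12 had an unadjusted p under 0.05 for EAA and none for MEA. Such a p was found for 650 (EAA) and 1902 (MEA) of the 13648 tested probe sets.

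Within the GH3 family, WES1 (GH3.5), which conjugates auxin and salicylic acid, was the other tested gene. It averaged 5.38 ± 0.52 with EAA, 5.29 ± 0.82 with MEA and 5.95 ± 0.77 in the salt reference on day 5 (SD, n = 3 each). On day 1 it averaged 5.12 ± 0.14 with EAA, 5.06 ± 0.18 with MEA and 5.69 ± 0.43 in the reference. Its day 5 minus day 1 difference in the reference was 0.27 (SE 0.40). Against the reference WES1 stood between -0.56 and -0.66 with either extract on either day (SE 0.40), and none passed. GH3.1, GH3.9 and GH3.17 lay between 2.85 and 3.57 in all 18 arrays, under the level needed for the test.

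Among the glucosyltransferases, UGT84B1, which conjugates auxin to glucose, and UGT84B2 stayed between 2.90 and 3.57, also under that level. UGT84A3 and UGT84A4, which glucosylate hydroxycinnamic acids, were tested and passed in none of the comparisons. The related loci AT2G31790 and AT4G14090 did not pass either; AT4G14090 had group SDs of 0.23 to 1.66. Of the YUC flavin monooxygenases of auxin synthesis, YUC2 was tested without passing, and YUC4, YUC6 and YUC11 lay under the level on average. AT1G14130, listed under auxin oxidation, stood at -0.81 between the days in the reference (SE 0.34, adjusted p = 0.0824) and did not pass. IAA29, another Aux/IAA gene, stood at -0.96 in both EAA and the reference between the days (SE 0.37, adjusted p = 0.0542 and 0.0616).

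The profiles most like those of the 2 genes were sought among 7313 tested probe sets with 1 annotated gene. The measure was the root mean square difference over the 18 arrays, each profile being centred on its own mean. For GH3.3 the nearest was AT1G53100, at 0.54, against a median of 1.03 over all probe sets compared. Its group means were 5.08 with EAA, 5.99 with MEA and 4.49 in the reference on day 5, against 6.60, 6.64 and 6.65 on day 1. AT2G37130, the glucosyltransferase gene UGT85A2, AT2G16710 and AT1G76580 followed at 0.58 to 0.59. For IAGLU the nearest were AT2G21185, AT3G60080, AT5G17600, AAPT2 (an aminoalcohol phosphotransferase of phospholipid synthesis) and AT1G33110, at 0.26 to 0.30, against a median of 0.84. The profiles share the same arrays, with their difference between the days, and the likeness is a description.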

How the data were processed

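The authors deposited a table of log2 array signals for 22810 probe sets and 18 arrays; the log2 scale was judged from the values. MAS5 is named by the submitters' processing notes. Its version is not given in the sources used here, nor are the scaling and log steps. Values were used as deposited. Probe sets were named through the platform annotation: 13513 had 1 gene, 503 several and 8794 none here. The 13648 probe sets with a mean at or above the 40th percentile (4.01) of the 22746 that were not controls entered limma 3.58.1 (R 4.3.3), with a mean for each group, an intensity trend and 12 residual degrees of freedom. Benjamini-Hochberg adjustment was made within each contrast. All groups share a spread per probe set, although the median SD of MEA day 5 was 0.337 and that of other groups 0.126 to 0.201. The number of arrays limits the precision. The model was run on simulated data with independent noise, the same spread in all groups and 200 changed probe sets. Of changes of 1 (log2), 54% to 76% were recovered, and 2.05% to 7.43% of calls were false. The simulation held neither the wider spread of MEA day 5 nor as many changes as were called between the days. It therefore does not show how the model does there. The members and lists were chosen with earlier results of these data known. The genes named are GH3.3 and IAGLU, any listed auxin gene with a named probe set, and the 5 nearest profiles of each; where several probe sets measured a gene, the one of highest mean was used. Correlations of deviations between same-numbered arrays ran from -0.44 to 0.43 and did not pair the samples. Alternatives were other scalings, filters, array weights, no trend, a replicate block, a fit without MEA day 5, and leaving out arrays. Figures used matplotlib 3.10.9 under Python 3.11.15.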

Additional observations from a re-analysis of the deposited data

Results flagged for a closer look

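GH3.3 had MEA differences of opposite sign on the 2 days. All 3 MEA arrays lay above the salt reference on day 5 and all 3 lay below it on day 1. The difference between the effects was 2.51 (SE 0.57), of uncertain size because the reference mean of day 5 lay under 4.01. It was not tested because the gene was chosen with its values known. SKP2A had its 3 EAA arrays above the reference on day 5 and below it on day 1. The day 1 margin was narrow, with the highest EAA array at 7.78 and the lowest reference array at 7.81. The difference of 0.70 between the effects (SE 0.69) did not pass by limma (adjusted p = 0.996). The share of all tested probe sets apart in opposite directions on the 2 days was not counted.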

How the results depend on the processing

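GH3.3 differences kept their size within 1 SD of the replicates in all 39 values, IAGLU differences in 38 of 39. Settings were other scalings, group medians, MEA day 5 replicate 2 alone (chosen after seeing the data) and the block, which cannot move them. The exception was IAGLU for MEA against the reference on day 5, -0.77 with that replicate alone. Leaving out 1 array at a time gave 1.21 to 1.69 for GH3.3 and -0.38 to -0.12 for IAGLU in EAA against the reference on day 5, 1.28 to 2.23 and -1.10 to -0.82 in MEA against the reference on day 5, and -0.95 to -0.39 and -0.76 to -0.49 in MEA against the reference on day 1. For EAA against the reference on day 1 the ranges were -0.84 to -0.28 for GH3.3 and -0.22 to 0.04 for IAGLU, and the sign for IAGLU turned without reference day 1 replicate 2. For GH3.3 in EAA against MEA they were -0.81 to 0.15 on day 5, turning without MEA day 5 replicate 1, and -0.04 to 0.28 on day 1, turning without EAA day 1 replicate 3; for IAGLU they were 0.56 to 0.87 on day 5 and 0.42 to 0.65 on day 1. Between the days they were -0.99 to -0.67 with EAA, -0.86 to 0.10 with MEA and -3.14 to -2.53 in the reference for GH3.3, and 1.31 to 1.57, 1.12 to 1.41 and 1.47 to 1.73 in the same order for IAGLU.

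Counts among the 12 pathway genes are given with the share of all probe sets that passed. With array weights 6 passed for MEA against the reference on day 5 (all 44.1%; 1 in the report), 6 for EAA against MEA on day 5 (45.5%; 1), 3 between the days with MEA (23.7%; 0), 6 between the days in the reference (52.1%; 1) and 5 for the MEA effect between the days (32.9%; 0). Without the MEA day 5 group 5 passed between the days in the reference (43.9%), and 2 with median centring (31.1%) or quantile normalization (31.2%). With no filter and 28 genes tested, 8 passed between the days with EAA (22.5%). With MEA day 5 replicate 2 alone, its spread taken as that of the other groups, 0 passed for EAA against MEA on day 5 (0.205%) and 4 between the days with MEA (37.9%). Leaving out 1 array gave 1 to 5 for MEA against the reference on day 5 (5 without MEA day 5 replicate 2, 40.2%), 0 to 5 for EAA against MEA on day 5 (5 without MEA day 5 replicate 2, 43.2%; 0 without any other), 2 to 3 between the days with EAA (2 without EAA day 1 replicate 1 or 2, or day 5 replicate 1, 24.6% to 28%) and 1 to 2 in the reference (2 without reference day 1 replicate 2, 24.2%). The cause was not tested. A replicate block could not move differences, each group holding replicates 1 to 3 (-2.88 for GH3.3 between the days in the reference). It changed no count by more than 1.5 times. By group means 1 of the 5 nearest profiles was shared for GH3.3, 0 for IAGLU. Median centring raised day 5 minus day 1 with EAA by a median of 0.11. The share of higher among all calls between the days was 43.1% with EAA, 40.6% with MEA and 45.5% in the reference as deposited, 57.6%, 58.5% and 56.9% centred, and 51.5%, 54.5% and 50.6% quantile normalized. At signals under 4.01, as for GH3.3 in the reference on day 5, sizes are uncertain.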
